A study of Mus musculus with 6 samples.

Results

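Melanopsin and 8 further genes listed for photosensitive retinal ganglion cells were followed through the embryonic retina of OC1-KO and WT mice. The 9 genes (Opn4, Eomes, Tbr1, Tbx20, Adcyap1, Rasgrp1, Igf1, Nmb and Baiap3) were taken as a list given for these cells. It includes Tbr1, a factor of other ganglion cell types. A probe set was counted for a gene when the platform annotation assigned it to that gene alone. This gave 20 probe sets of the 45037 non-control probe sets on the array, and 9 of the 18193 genes measured. No probe set that the annotation shares between a member and another gene was found, so all 20 are described.

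Retinas were taken from single mouse embryos at E14 as the sample labels give it, E14.5 in the series title, and each embryo was hybridised to its own Affymetrix mouse genome array. There were 3 OC1-KO embryos, which lack the transcription factor Onecut1, and 3 WT embryos, and each genotype carries the embryo numbers 1 to 3. All 6 share a mixed strain background, from a Onecut1-deficient line made with R1 embryonic stem cells and later crossed to C57Bl/6, and both genotypes are littermates. The knockout is constitutive, so Onecut1 was absent from the whole embryo and not from the retina alone. RNA of the whole retina was measured, in which photosensitive ganglion cells would be a small fraction. Onecut1 itself gave log2 signals of 8.94, 7.51 and 9.30 in OC1-KO embryos 1 to 3 and 8.51, 8.43 and 9.30 in WT embryos 1 to 3. The other of its 2 probe sets gave 9.02, 8.31 and 9.67 in OC1-KO and 9.25, 8.76 and 9.01 in WT. No source says whether these probe sets fall inside the deletion, so they check nothing about the knockout or the labels. The records of both embryos numbered 3 are numbered apart from those of the other 4, and these 2 arrays stood apart on lens and red blood cell genes. The labels were used as given, and an exchange of genotype labels between them, which would turn the sign of every pair 3 difference, was not tested. Onecut2, its closest relative, differed by -0.27, -0.23 and -0.32 (log2, OC1-KO minus WT) on its 3 probe sets.

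Intrinsically photosensitive ganglion cells are output neurons of the retina that respond to light through their own photopigment, melanopsin, and send it to brain centres for the circadian clock and the pupil reflex. Melanopsin works through a Gq-type G protein and phospholipase C to open TRPC channels, unlike the cyclic nucleotide pathway of rods and cones. In the mouse, the T-box factor Eomes, also called Tbr2, is needed for these cells to form, and the peptide PACAP, the product of Adcyap1, is released by their axons together with glutamate.

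The start region of Opn4 is printed because its probe set 1445121_at had the largest difference between genotypes among the members. The other Opn4 probe set, 1421584_at, had a lower mean in OC1-KO. That of Eomes is printed because it held the only match among the members to a Onecut motif. Both regions are RefSeq sequences of build GRCm38.p6, from 250 bases before to 50 bases after the annotated start, 5′ to 3′ on the strand of the gene. Capitals mark ATTGAT, a core of the Onecut binding motif. The Opn4 region lies at chr14:34600093-34600392 on the minus strand and the Eomes region at chr9:118477939-118478238 on the plus strand.
Opn4: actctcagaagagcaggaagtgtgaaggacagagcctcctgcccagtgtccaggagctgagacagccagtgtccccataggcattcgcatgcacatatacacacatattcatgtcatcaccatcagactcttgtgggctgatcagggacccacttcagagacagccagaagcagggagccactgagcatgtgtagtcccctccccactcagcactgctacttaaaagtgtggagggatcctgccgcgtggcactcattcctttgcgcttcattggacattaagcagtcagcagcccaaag
Eomes: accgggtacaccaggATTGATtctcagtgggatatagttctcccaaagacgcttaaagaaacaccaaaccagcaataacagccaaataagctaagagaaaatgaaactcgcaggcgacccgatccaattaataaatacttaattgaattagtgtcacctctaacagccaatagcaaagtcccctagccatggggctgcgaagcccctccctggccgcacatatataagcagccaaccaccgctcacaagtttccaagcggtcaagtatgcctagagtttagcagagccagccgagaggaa
All 9 genes were found in the RefSeq promoter table, with 10 regions because Adcyap1 has a pair of starts. Searched on both strands, ATTGAT was found in the Eomes region alone, and ATCGAT, AGGTGTGA (a T-box half-site) and its core GGTGTGA, which lies within the longer motif, in none of the 10. Among 32851 RefSeq regions of the same length, 7.5% hold ATTGAT, 0.9% ATCGAT, 1.3% AGGTGTGA and 4.0% GGTGTGA. These matches describe letters in the window and do not show a bound site.

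The array signal is the MAS5 value of a probe set, given here as log2, so a difference of 1 is a doubling. A probe set was kept for the main comparison when its mean was over 7 in OC1-KO or in WT, the limit the study's methods use for expression. Of the 20 member probe sets, 10 were kept, from Eomes, Tbx20, Adcyap1, Igf1 and Nmb, and 10 lay below the limit, including both of Opn4 and all of Tbr1, Rasgrp1 and Baiap3. A Tbx20 probe set passed only through its OC1-KO mean, 7.11 against 6.39 in WT. Signals below the limit are reported with that caution.

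No member differed between genotypes after adjustment: by limma with Benjamini-Hochberg adjustment, 0 of 20 probe sets had an adjusted p under 0.05, as had 0% of the 20888 kept probe sets and 0% of all 45037. At an unadjusted limma p under 0.05 there was 1 of 20, the Opn4 probe set 1445121_at, which lies below the limit, where 2.90% of all probe sets passed. None of the 10 kept members did, where 1.01% of kept probe sets passed, 0.369% higher and 0.637% lower in OC1-KO. With the embryo number as a block, 0 of 10 kept members passed an unadjusted limma p of 0.05, against 4.37% of kept probe sets, and the methods' t-test passed 1 of 10, Adcyap1, against 1.51%. The mean was higher in OC1-KO for 11 member probe sets and lower for 9, where 48.1% of all probe sets and 47.7% of the kept ones were higher. Whole retinas were measured, so fewer cells of a type and less RNA per cell cannot be told apart.

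**Figure D1:**
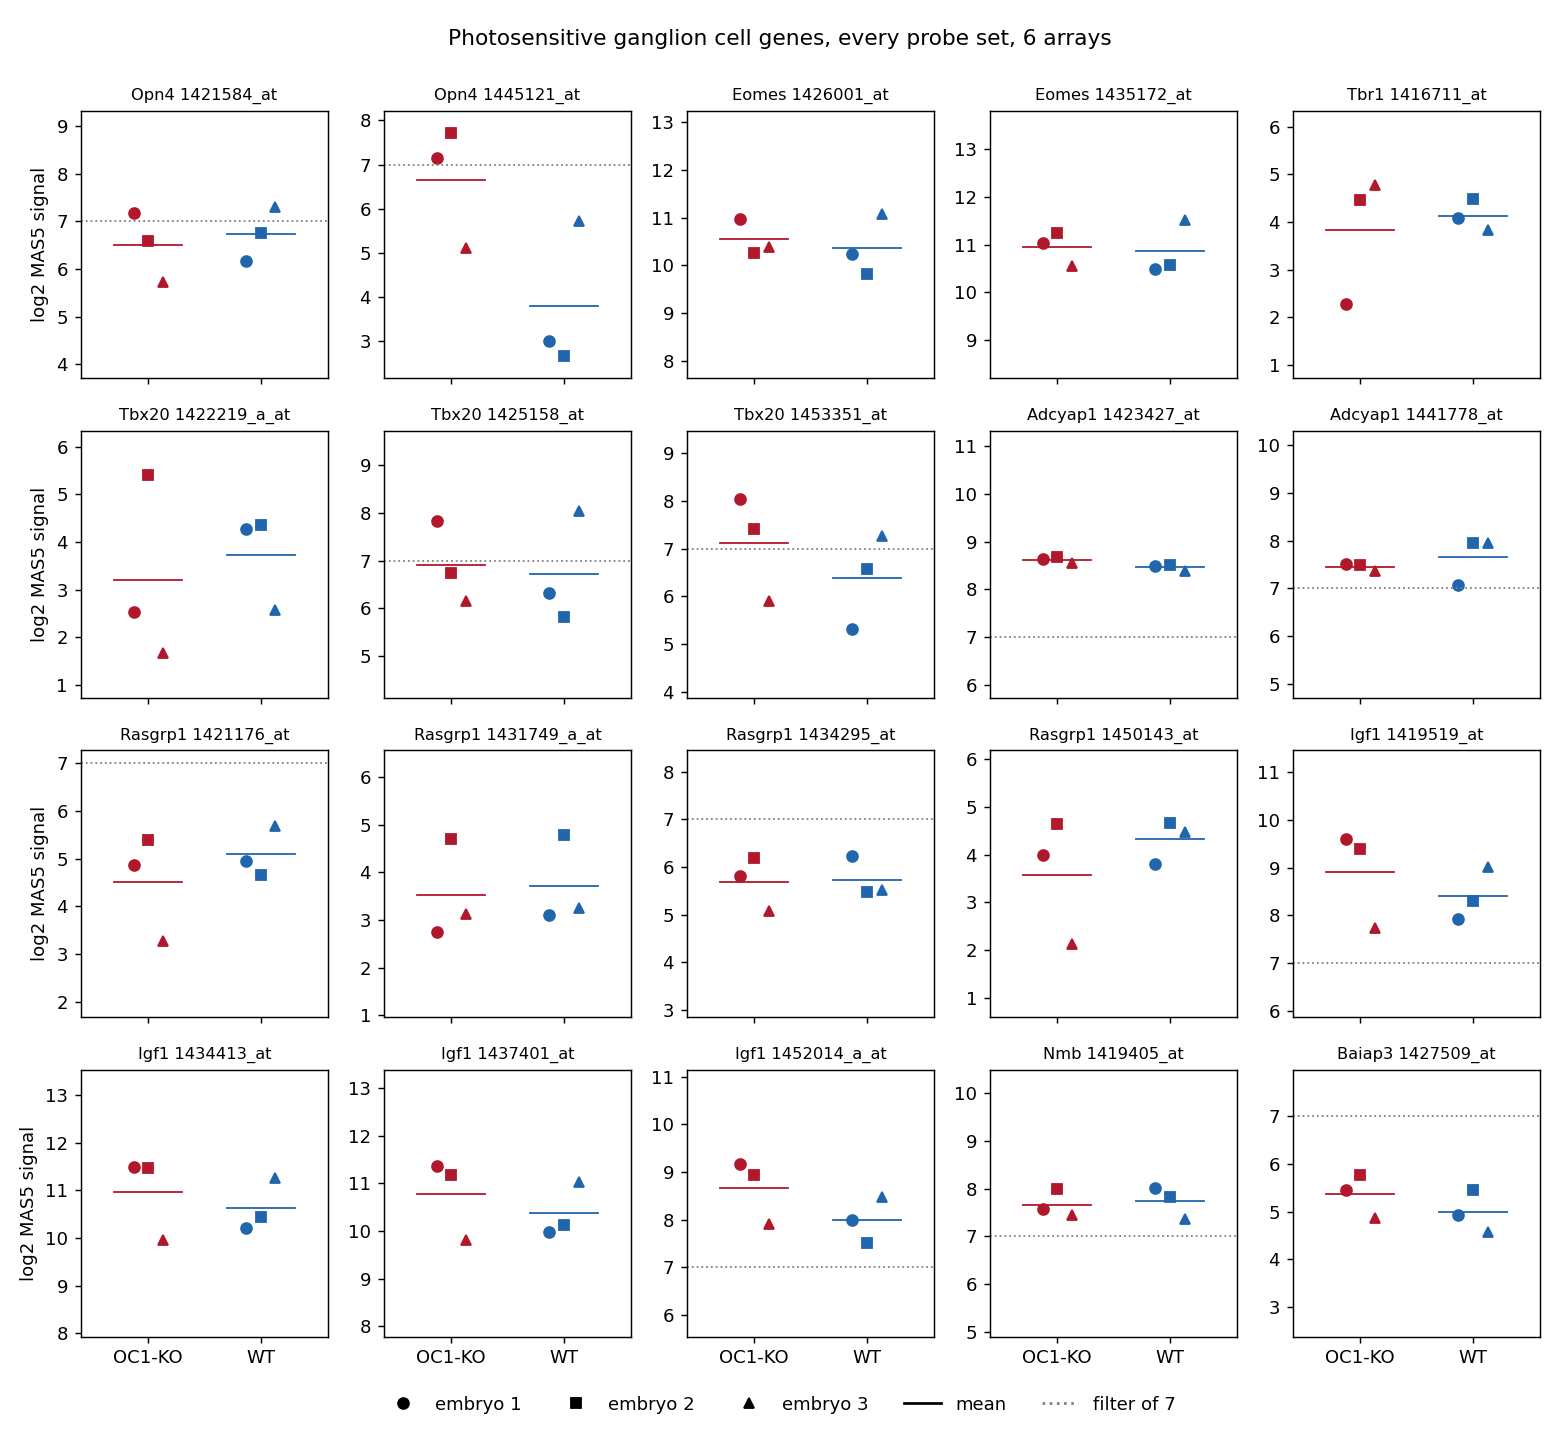
Log2 MAS5 signal (vertical axis) of every member probe set in the 6 arrays, OC1-KO in red and WT in blue, 1 point per embryo marked by embryo number, with a bar at the mean of 3 and a dotted line at the limit of 7 where the axis reaches it. In the 4 Igf1 panels OC1-KO 1, OC1-KO 2 and WT 3 lie high and OC1-KO 3, WT 1 and WT 2 low.

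**Figure D2:**
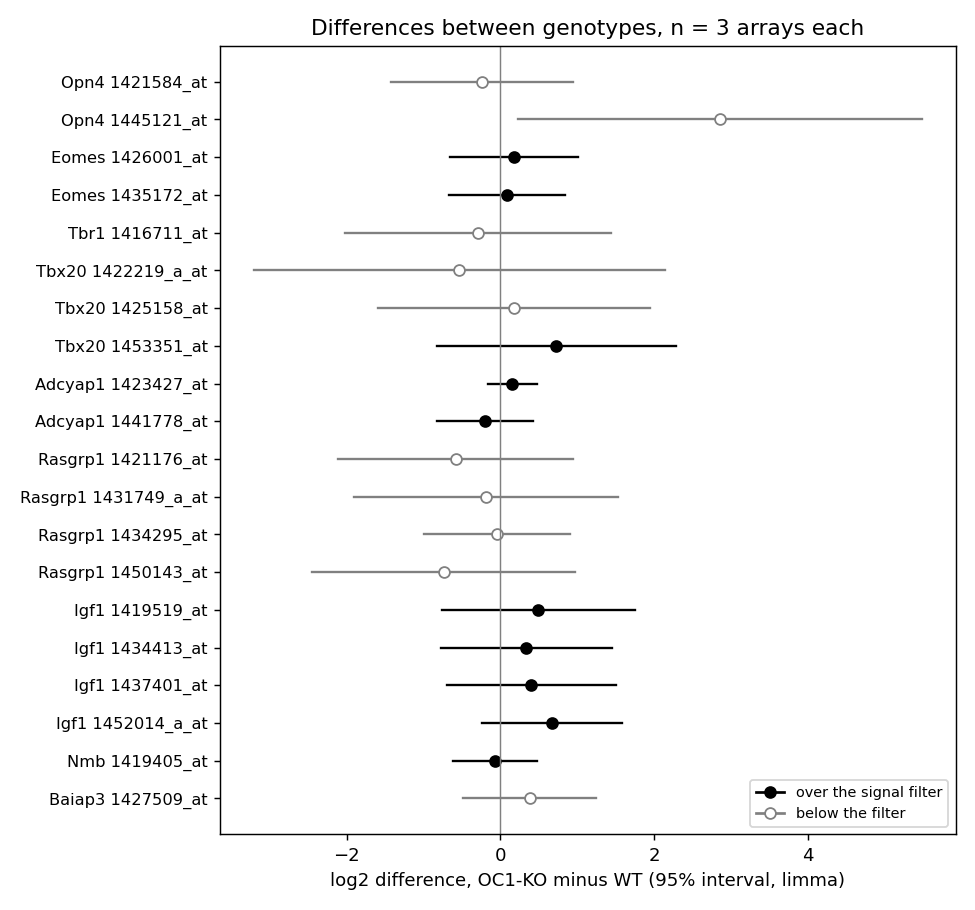
Log2 difference, OC1-KO minus WT, of the 20 probe sets (horizontal axis, n = 3 each) with the 95% interval of the limma fit; filled points passed the signal limit and open points did not. The interval of Opn4 1445121_at, from 0.23 to 5.48, is the only one of the 20 that leaves 0 out, and its adjusted p is 1.00.

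Opn4 encodes melanopsin, the photopigment of these cells. On the probe set 1445121_at it measured 7.15, 7.71 and 5.11 in OC1-KO embryos 1 to 3, against 3.00, 2.68 and 5.71 in WT embryos 1 to 3. OC1-KO 1 and 2 were above every WT array, OC1-KO 3 was below WT 3, and the groups overlapped. The means were 6.65 ± 1.37 in OC1-KO and 3.80 ± 1.67 in WT (SD, n = 3 each), which differ by 2.86 on the log2 scale (SE 1.06). WT 1 and WT 2 lay far below the limit, where log2 stretches small signals, and with 50 added to each signal before log2 the difference was 1.22 (unadjusted limma p 0.0277, adjusted p 1.00). The exact two-sided permutation test gave p = 0.2, where 0.1 is the smallest value 3 against 3 can reach, and limma with the block gave an unadjusted p of 0.117. This probe set no longer had an unadjusted limma p under 0.05 without OC1-KO 1, OC1-KO 2, WT 1 or WT 2 (p 0.099 to 0.11). The count of members at that p, 1 here, was 0 without OC1-KO 1, OC1-KO 2 or WT 2. It was 1 without WT 1, where the member was Adcyap1 1441778_at (-0.50, unadjusted limma p 0.02), and 5 without OC1-KO 3.

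The other Opn4 probe set, 1421584_at, built on the RefSeq transcript of the gene, measured 7.18, 6.58 and 5.73 in OC1-KO embryos 1 to 3 and 6.17, 6.75 and 7.30 in WT embryos 1 to 3. The order of the embryos was opposite in the 2 genotypes, with OC1-KO 3 the lowest and WT 3 the highest of the 6. The difference was -0.24 (SE 0.48), with a 95% interval from -1.42 to 0.94, so a doubling in OC1-KO lay just outside the interval. Over the 6 arrays the signals of the 2 Opn4 probe sets correlated at r = 0.34. Each was over 7 in 2 of 6 arrays, OC1-KO 1 and OC1-KO 2 on 1445121_at, and OC1-KO 1 and WT 3 on 1421584_at. The 2 probe sets thus ordered the arrays differently. The source sequence of 1445121_at is not listed among the RefSeq transcripts of the gene. The same holds for other member probe sets, both of Eomes among them. No probe set was mapped to transcripts, so the target of 1445121_at was not checked.

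The T-box factors come next. Eomes, the factor upstream of Opn4 in mouse, measured 11.03, 11.24 and 10.56 in OC1-KO embryos 1 to 3 and 10.50, 10.57 and 11.52 in WT embryos 1 to 3 on 1435172_at. Its other probe set, 1426001_at, measured 10.98, 10.26 and 10.39 in OC1-KO and 10.24, 9.81 and 11.07 in WT. On both, OC1-KO was above WT for embryos 1 and 2 and below WT for embryo 3, and WT 3 was the highest of the 6 arrays. The 95% interval of the difference ran from -0.67 to 0.84 on 1435172_at and from -0.66 to 1.00 on 1426001_at, with r = 0.69 between them over the 6 arrays. Eomes lies on chromosome 9 like Onecut1, 43.6 Mb away, and Tbx20 lies 50.1 Mb from Onecut1 on the same chromosome (GRCm38.p6).

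Tbx20 marks a subset of photosensitive ganglion cells in mouse. Its probe set 1453351_at measured 8.03, 7.40 and 5.91 in OC1-KO embryos 1 to 3 and 5.32, 6.58 and 7.26 in WT embryos 1 to 3, which differ by 0.73 (SE 0.66). The 1425158_at signals were 7.82, 6.74 and 6.15 in OC1-KO and 6.33, 5.83 and 8.04 in WT. These probe sets again had OC1-KO above WT for embryos 1 and 2 and below it for embryo 3, and correlated at r = 0.71. The third, 1422219_a_at, was dim, with 2.52, 5.40 and 1.67 in OC1-KO and 4.27, 4.36 and 2.56 in WT, and did not follow them (r = -0.35 and -0.03). Its difference of -0.53 was 0.00 with 50 added to each signal before log2. Tbr1, a T-box factor of other ganglion cell types and of cortical neurons, stayed below the limit on every array, at 2.28, 4.46 and 4.78 in OC1-KO and 4.08, 4.48 and 3.84 in WT.

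Among the secreted members, Igf1, which encodes insulin-like growth factor 1, gave the clearest pattern by array. On 1434413_at it measured 11.49, 11.47 and 9.97 in OC1-KO embryos 1 to 3 and 10.21, 10.45 and 11.26 in WT embryos 1 to 3. On 1437401_at it measured 11.36, 11.17 and 9.80 in OC1-KO and 9.98, 10.14 and 11.02 in WT. OC1-KO 1, OC1-KO 2 and WT 3 were the high arrays, OC1-KO 3, WT 1 and WT 2 the low ones. The same arrays were high and low on 1419519_at, with 9.60, 9.40 and 7.73 in OC1-KO and 7.93, 8.30 and 9.03 in WT, and on 1452014_a_at, with 9.18, 8.93 and 7.90 in OC1-KO and 8.002, 7.51 and 8.47 in WT. The 4 differences ran from 0.34 to 0.68, with the smallest unadjusted limma p, 0.123, on 1452014_a_at. OC1-KO 3 lowered them: without it they ran from 0.84 to 1.08 (unadjusted limma p 0.012 to 0.0414). Without OC1-KO 1 they ran from 0.08 on 1434413_at, the lowest over all arrays left out in turn, to 0.42 on 1452014_a_at. These probe sets are assigned to 1 gene and correlated at r = 0.87 to 0.99 over the 6 arrays, so they count as repeated readings of the gene and not as 4 observations.

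Adcyap1 is the PACAP gene. On 1423427_at it measured 8.64, 8.67 and 8.56 in OC1-KO embryos 1 to 3 and 8.50, 8.52 and 8.40 in WT embryos 1 to 3. Every OC1-KO array was above every WT array, the only member probe set of 20 whose groups did not overlap, where 5.49% of all and 3.56% of kept probe sets did not. The pairs of the same number differed by 0.14, 0.15 and 0.16. The difference of means was 0.15 (SE 0.14) with an unadjusted limma p of 0.298 and an adjusted p of 1.00, and the exact permutation test gave p = 0.1, its smallest value. The other probe set, 1441778_at, did not repeat this, with 7.51, 7.49 and 7.37 in OC1-KO against 7.06, 7.95 and 7.96 in WT and r = -0.34 between the 2. Nmb, the neuromedin B peptide gene, measured 7.56, 7.99 and 7.45 in OC1-KO and 8.01, 7.82 and 7.37 in WT, with a 95% interval of the difference from -0.62 to 0.48.

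The remaining members act inside the cell. Rasgrp1 encodes a guanine nucleotide exchange factor for Ras that marks photosensitive ganglion cells in mouse, and its 4 probe sets all lay below the limit, with differences from -0.74 to -0.05. On 1450143_at it measured 3.98, 4.64 and 2.11 in OC1-KO embryos 1 to 3 and 3.81, 4.66 and 4.48 in WT embryos 1 to 3, and on 1421176_at 4.88, 5.38 and 3.27 in OC1-KO and 4.95, 4.66 and 5.68 in WT. On both, OC1-KO 3 was the lowest of the 6 arrays. On 1434295_at it measured 5.80, 6.19 and 5.07 in OC1-KO and 6.23, 5.47 and 5.51 in WT, with overlapping groups. On 1431749_a_at it measured 2.75, 4.69 and 3.12 in OC1-KO and 3.10, 4.77 and 3.25 in WT, high in both embryos numbered 2.

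Baiap3 encodes a Munc13-like protein of dense-core vesicle traffic, and measured 5.46, 5.77 and 4.88 in OC1-KO and 4.94, 5.46 and 4.58 in WT. OC1-KO was above WT in each pair of the same number, by 0.53, 0.31 and 0.30, while the groups overlapped. Its difference of 0.38 had an unadjusted p of 0.32 by limma and of 0.0778 by limma with the block. All 3 pairs had the same sign in 3 of 20 member probe sets, Adcyap1 1423427_at and Baiap3 higher and Rasgrp1 1431749_a_at lower in OC1-KO, against 23.0% of all probe sets. Among the kept members it was Adcyap1 alone, 1 of 10, against 23.4% of kept probe sets.

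Arrays of the same embryo number resembled each other across all kept probe sets, with correlations of 0.509, 0.575 and 0.671 after removal of the genotype means, against -0.44 to -0.04 for arrays of different number. As that removal makes the arrays of a genotype sum to 0, positive values for the same number force negative ones, on balance, for different numbers. No kept member was resolved as sharing a level by number in the F-test that follows. That test counts a genotype difference that varies with number as residual spread, so it could miss a shared level. In the limma F-test of embryo number, with genotype in the model, 0 of 20 member probe sets had an adjusted p under 0.05, against 5.32% of kept and 0% of all probe sets. At an unadjusted p under 0.05 there were 0 of the 10 kept members, against 31.9% of kept probe sets, and 2 of the 10 below the limit, Rasgrp1 1431749_a_at and Baiap3, against 12.7% of all probe sets. For Igf1 1437401_at, the means of the numbers 1, 2 and 3 were 10.67, 10.66 and 10.41.

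The difference between genotypes varied with embryo number in several members. OC1-KO was above WT in pairs 1 and 2 and below it in pair 3 in 9 of 20 member probe sets, 7 of the 10 kept and 2 of the 10 below the limit, where 14% of kept and 15.5% of all probe sets had this order. The 9 come from Opn4 (1445121_at), Eomes (both), Tbx20 (1425158_at and 1453351_at) and Igf1 (all 4), so they stand for 4 genes. The size of the step was large beside the overall differences. For Igf1 1419519_at the pairs differed by 1.67, 1.10 and -1.30, for Tbx20 1453351_at by 2.71, 0.82 and -1.35, and for Eomes 1435172_at by 0.53, 0.67 and -0.95.

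**Figure D3:**
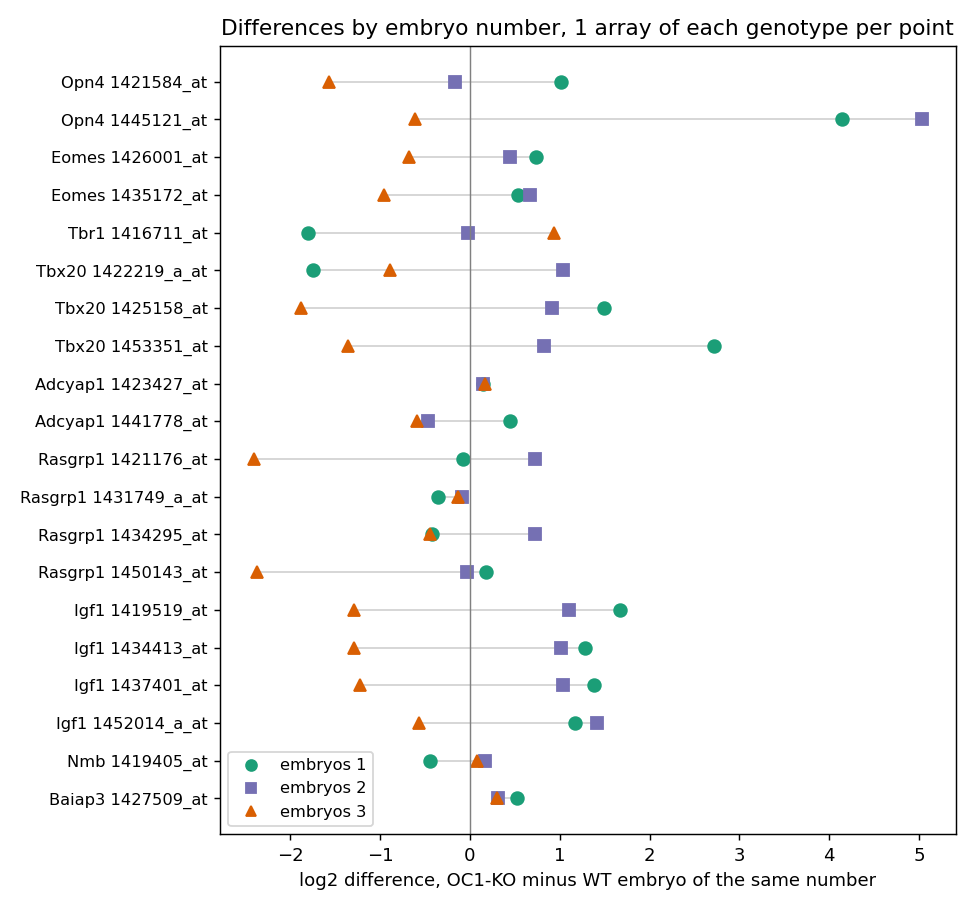
Log2 difference, OC1-KO minus WT embryo of the same number (horizontal axis), for the 20 member probe sets, 1 array of each genotype per point, with a grey line over the range of the 3 pairs. Pair 3 (triangles) lies left of 0 and pairs 1 and 2 right of it for 1 Opn4, both Eomes, 2 Tbx20 and all 4 Igf1 probe sets, while the points of Adcyap1 1423427_at lie within 0.02 of each other.

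Whether the genotype difference of pair 3 departed from that of pairs 1 and 2 was tested with an interaction term in limma, chosen after the values had been seen. It rests on a single array of each genotype numbered 3, and as it was chosen from these values it adds no support. Probe sets of the same gene are repeated readings, so the counts of probe sets are not counts of genes. No member had an adjusted p under 0.05, nor had any kept probe set (0%). At an unadjusted p under 0.05 there were 11 of 20, 6 of the 10 kept against 2.92% of kept probe sets and 5 of the 10 below the limit against 6.43% of all probe sets. In all 11 the OC1-KO minus WT difference was smaller in pair 3, a direction that 2.26% of kept and 4.11% of all probe sets shared at that p. They are both Opn4 probe sets, Eomes 1435172_at, Tbx20 1425158_at and 1453351_at, Rasgrp1 1421176_at and 1450143_at, and the 4 of Igf1, from 5 genes.

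For Opn4 1445121_at the difference in pair 3 was lower than that in pairs 1 and 2 by a log2 of -5.20 (SE 0.56, unadjusted limma p 0.00128, adjusted p 0.527), and by -2.24 with 50 added to each signal before log2. For Igf1 1434413_at it was -2.44 (SE 0.31, unadjusted limma p 0.000576, adjusted p 1.00), and for Eomes 1435172_at -1.56 (SE 0.30, unadjusted limma p 0.00382, adjusted p 1.00). Adcyap1 1423427_at had 0.02 (SE 0.27), Nmb 0.21 (SE 0.38) and Baiap3 -0.12 (SE 0.54), with no departure that these arrays could resolve.

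With the embryos numbered 1 and 2 alone, 2 OC1-KO against 2 WT arrays, 8 of 20 member probe sets had an unadjusted limma p under 0.05, all higher in OC1-KO, where 4.46% of all probe sets passed and 2.43% were higher. These 8 passed the limit of 7 in the 4 arrays, where 2.23% of kept probe sets passed, and the Opn4 and Tbx20 probe sets among them were kept there only through their OC1-KO mean. Opn4 1445121_at differed by 4.59 (SE 0.26), and its limma adjusted p of 0.0964 was the lowest of the members. Its size rests on WT signals of 3.00 and 2.68, far below the limit, and is no exact measure of the fold. The other 7 had adjusted p-values of 1.00, with differences of 0.60 for Eomes 1435172_at, 1.20 and 1.77 for Tbx20, and 1.15 to 1.39 for Igf1. The same direction was already in the choice of pairs 1 and 2, so these values describe the arrays and add no support.

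The arrays numbered 3 also stood apart on genes of neighbouring tissues. The summed log2 signal of the lens list, 9 genes measured of 9, was 7.87, 8.44 and 13.20 in OC1-KO embryos 1 to 3 and 7.86, 7.80 and 14.18 in WT embryos 1 to 3. That of red blood cells, 6 of 7 genes, was 6.12, 9.53 and 14.55 in OC1-KO and 8.55, 6.97 and 14.02 in WT, and that of periocular mesenchyme, 7 of 8 genes, 8.78, 9.41 and 11.23 in OC1-KO and 9.41, 8.92 and 11.48 in WT. Embryo 3 was the highest of its genotype on all of these lists, in both genotypes, while on the 4 Igf1 probe sets embryo 3 was the lowest OC1-KO array and the highest WT array. Pigment epithelium genes, 7 of 7, were at 8.97, 9.35 and 10.87 in OC1-KO and 8.64, 7.77 and 9.52 in WT, higher in OC1-KO in each pair. The 3 kept genes of that list, with a median difference of 1.24, passed the limit only through their OC1-KO means. The filter thus fixed their direction. Among them Pmel, a melanosome protein, averaged 8.36 in OC1-KO and 6.97 in WT. It differed by 1.40 (unadjusted limma p 0.0852, and 0.00258 with the embryo block, where 4.37% of kept probe sets were under 0.05). Pmel was named after its values were seen, and no kept probe set had an adjusted p under 0.05 in either fit. Rpe65, an enzyme of the mature epithelium, was at most 3.69 on any array. Macrophage genes, 6 of 6, ranged from 9.71 to 10.14 in OC1-KO and from 9.80 to 10.05 in WT. Endothelium, 5 of 5, ranged from 10.62 to 11.25 in OC1-KO and from 10.55 to 11.10 in WT. Only 2 of these 5 were kept, and Kdr, at 10.13 to 11.10 over the arrays, carried most of that sum. The part of these tissues in the member signals was not tested.

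Ganglion cells as a whole were measured with 13 of 14 listed genes, 11 of them kept. Their summed log2 signal was 16.29, 16.08 and 16.47 in OC1-KO embryos 1 to 3 and 16.34, 16.02 and 16.38 in WT embryos 1 to 3. Of the 11, 6 were higher and 5 lower in OC1-KO with a median difference of 0.03, and none had an unadjusted limma p under 0.05. The neurofilament gene Nefl averaged 14.23 in OC1-KO and 14.15 in WT. Stmn2, a stathmin that binds tubulin, averaged 13.68 in OC1-KO and 13.64 in WT. Of the 11, 1 had OC1-KO above WT in pairs 1 and 2 and below it in pair 3, against 14% of kept probe sets.

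**Figure D4:**
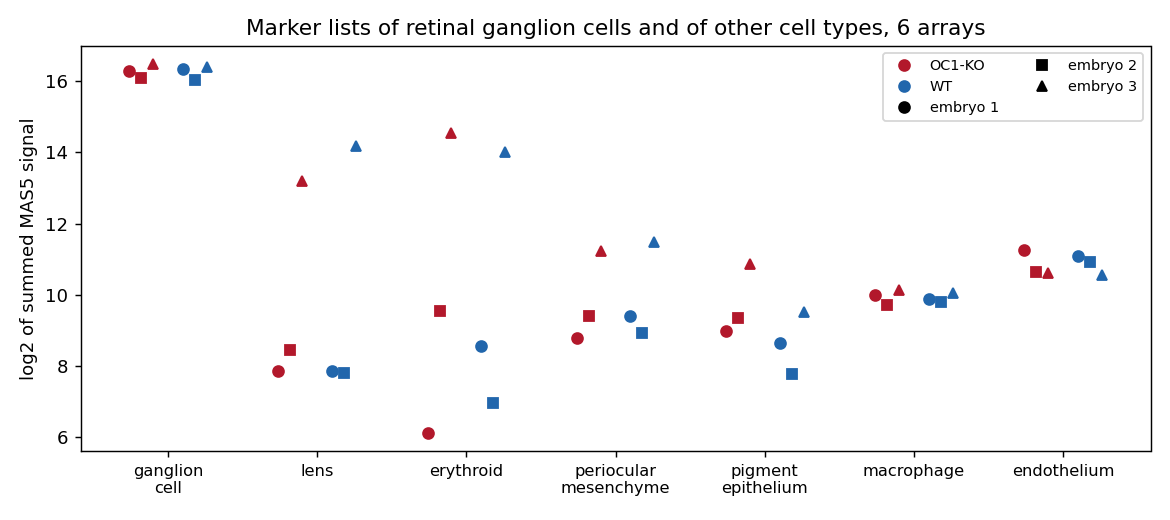
Log2 of the summed MAS5 signal of 7 marker lists (horizontal axis) in the 6 arrays, OC1-KO in red and WT in blue, marked by embryo number. Embryo 3 of either genotype lies highest for lens, red blood cells and periocular mesenchyme, and the ganglion cell sums lie between 16.02 and 16.47.

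The kept genes listed for melanopsin phototransduction, arrestins among them, had close means in the 2 genotypes. Of 11 listed, 9 had a probe set of their own and 6 were kept, 3 higher and 3 lower in OC1-KO (median difference -0.01 on the log2 scale), and none had an unadjusted limma p under 0.05. Gnaq, a Gq alpha subunit, averaged 11.82 in OC1-KO and 11.81 in WT, and its relative Gna11 10.86 in OC1-KO and 10.90 in WT. Trpc7, one of the candidate melanopsin channels, lay below the limit at 6.94 in OC1-KO and 6.59 in WT, as did Trpc6 and Gna14. Of the 6 kept, 2 were above WT in pairs 1 and 2 and below it in pair 3, against 14% of kept probe sets. Trpc7, Trpc6 and Gna14, named after their values were seen, had this order too, against 15.5% of all probe sets. None of them had an unadjusted limma p under 0.05 for the departure of pair 3. Trpc6 was at most 0.77 on any array, where the order of arrays is least certain. Receptors and binding proteins of the secreted members had 5 of 9 genes kept, and none had an unadjusted limma p under 0.05. All 5 were higher in OC1-KO, with a median of 0.04, where 47.7% of kept probe sets were higher. Those below the limit differed by -1.28 to 0.16, most of them lower in OC1-KO. Igfbp4 and Igfbp2, which bind insulin-like growth factors, averaged 12.66 and 12.27 in OC1-KO and 12.64 and 12.17 in WT.

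Of 5 other opsins measured, Opn3 (9.64 in OC1-KO and 9.42 in WT) and Rrh, peropsin (10.40 in OC1-KO and 10.43 in WT), were kept, and the cone opsins Opn1sw and Opn1mw were below the limit. Among T-box relatives, Tbx2 averaged 10.37 in OC1-KO and 10.47 in WT and Tbx3 9.66 in OC1-KO and 9.86 in WT, and none of these 4 had an unadjusted limma p under 0.05. Below the limit, Tbx18 was above WT in pairs 1 and 2 and below it in pair 3 (3.14, 2.82 and -2.43). Tbx5 had the reverse order (-1.35, -1.30 and 2.25), and Tbx21 was higher in OC1-KO in each pair. Of all probe sets, 15.5% had the order of Tbx18.

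The kept genes whose signals followed the members most closely across the 6 arrays were ranked by Pearson correlation, as a description of 6 points among 20888 probe sets. For Opn4 1445121_at they were Gnb4 (r = 0.988), Rab4a (r = 0.972) and Zpr1 (r = 0.972). For Opn4 1421584_at they were Zfhx3 (r = 0.986), Slc5a6 (r = 0.983) and Ppp4r3b (r = 0.981). With r = 0.34 between them, the 2 Opn4 probe sets could share no leading gene at correlations this high. For Eomes 1435172_at they were B4galt5 (r = 0.994), 2610306M01Rik (r = 0.983) and Tapbp (r = 0.982). B4galt5 measured 9.34, 9.41 and 9.13 in OC1-KO embryos 1 to 3 and 9.11, 9.10 and 9.50 in WT embryos 1 to 3, with the same 3 arrays high and the same 3 low as for Eomes, over a narrower range.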

How the data were processed

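The authors hybridised amplified retinal RNA, 1 array per labelled embryo, on Affymetrix arrays, and the deposited values are MAS5 intensity (signal) per probe set, background-corrected and scaled by array to a 2% trimmed mean of 500; no source names a MAS5 version. Log2 was taken and 64 control probe sets were left out. Median signals ran from 85.0 to 104, and 43.4% to 46.7% of probe sets per array were over 7; the number of arrays limits the precision. Of the non-control probe sets, 34945 carry 1 gene, 932 several and 9160 none, with 34741 matched by Entrez ID.

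Genotypes were compared with limma 3.58.1 in R 4.3.3 without an intensity trend over probe sets with a mean over 7 in either genotype. Members below that limit come from the same fit on all 45037 probe sets, with its own Benjamini-Hochberg adjustment. The methods' t-test, exact permutation tests (two-sided), an F-test of embryo number and an interaction term were added, the last after the values were seen. The fits were tested on simulated data. Each sample is a separate embryo. The labels do not state that numbers pair embryos, but same-numbered arrays correlated at 0.509, 0.575 and 0.671, and 6 of 6 arrays correlated best with their own number. Members and lists were chosen with earlier results of these data known. All member probe sets are named, and from the pathway, opsin, T-box and ganglion cell lists the 2 brightest kept genes, as none reached an unadjusted p of 0.05. Gna14, Trpc6, Trpc7, Tbx5, Tbx18, Tbx21, Pmel, Rpe65, Kdr and the cone opsins were named after their values were seen. Lists use the brightest probe set of each gene. Alternatives were quantile normalization, median centring, 50 added before log2, no filter, a limit of 8, an intensity trend, the embryo block, embryos 1 and 2 alone and leaving out each array.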

Additional observations from a re-analysis of the deposited data

How the results depend on the processing

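No member passed an adjusted p of 0.05 under any alternative. With embryo number as the replicate block, the pairing moved the count of members at an unadjusted p from 1 to 0 and that of all kept probe sets from 210 to 913, and changed no other call. The member count was 8 with embryos numbered 1 and 2 alone and 0 to 5 with an array left out. The count over all tested was 1305 without a filter, 117 with a limit of 8, 121 with an intensity trend, 316 by the methods' t-test, 477 with embryos 1 and 2 alone and 185 to 441 with an array left out. For embryo number, the 2 members at an unadjusted p became 1 with quantile normalization, 1 with 50 added to the signal, 0 with an intensity trend and 1 to 9 with an array left out (9 without OC1-KO 3, 8 without WT 3). Differences changed sign with embryos 1 and 2 alone for Opn4 1421584_at (0.42) and Rasgrp1 1421176_at (0.33), 1434295_at (0.15) and 1450143_at (0.073), and with 50 added for Tbx20 1422219_a_at (0.0002476). The departure of pair 3 changed sign with quantile normalization for Baiap3 (0.11). With an array left out, differences ran from -0.58 to 0.14 for Opn4 1421584_at, -0.11 to 0.52 and -0.10 to 0.41 for Eomes 1426001_at and 1435172_at, -0.76 to 0.49 for Tbr1, -1.64 to 0.23 and -0.29 to 0.83 for Tbx20 1422219_a_at and 1425158_at, -1.02 to 0.035, -0.77 to 0.34 and -0.30 to 0.26 for Rasgrp1 1421176_at, 1431749_a_at and 1434295_at, and -0.25 to 0.071 for Nmb. The departure of pair 3 ran from -1.98 to 0.90 for Tbx20 1422219_a_at, -0.88 to 1.06 for Rasgrp1 1431749_a_at, -0.0009846 to 0.43 for Nmb and -0.38 to 0.14 for Baiap3. In these cases the cause was not tested beyond the samples left out. The members at an unadjusted p for the departure of pair 3 numbered 9 to 11 under the alternatives run. Member differences kept their sign in 175 refits and changed it in 5, and with an array left out kept it in 100 and changed it in 20. Of the member probe sets, 10 of 20 lay below the signal limit, where the order of arrays is least certain.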
